A study of Mus musculus with 104 samples.

Results

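The metabotropic glutamate receptor genes Grm2, Grm3, Grm4, Grm5, Grm7 and Grm8 were followed in RNA of the mouse cerebral cortex. They are 6 genes chosen by name among the 24060 genes of the authors' RefSeq counts, and all 6 were among the 15723 genes with enough reads to be tested. The animals were wild type C57BL/6 mice aged 6 months. They came from 13 lines that the labels name after a gene: Zswim6, Tbc1d8, Rgs9, Rasgef1a, Ppp1ca, Pcdh20, Morf4l1, Kdm3b, Hrk, Gsg1l, Ece2, Dach1 and Arpp19. Each line gave a library from 4 females and from 4 males, 52 of each sex. All of them served as wild type controls, so no group here carried a mutation or a treatment, whatever gene its line is named after. The labels tag the lines as batches, so line and batch cannot be told apart, and the p-values treat the mice as independent animals.

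Metabotropic glutamate receptors are G protein-coupled receptors that sense glutamate, the main excitatory transmitter of the cortex, and tune transmission rather than carry it. Group I receptors sit mostly after the synapse and act through Gq and phospholipase C. Group II and group III receptors sit largely on nerve endings, couple to Gi and Go proteins, lower cyclic AMP and reduce transmitter release. Grm5 encodes the group I member, Grm2 and Grm3 the group II members, and Grm4, Grm7 and Grm8 the group III members described here.

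Kdm3b female replicate 22 held 3.389 M reads over the RefSeq genes. The other libraries held between 23.93 and 33.49 M, and the median library 28.38 M. Libraries of 1 line and sex differed by more than sampling noise in each of 156 pairs (chi-square over degrees of freedom of 2.49 or more). Reads of Xist or of 4 Y genes went against the sex label in 3 libraries, which were kept as labelled and left out as an alternative. Rasgef1a male replicate 40 held 32425 Xist reads and 0 Y reads, and Rgs9 female replicate 43 held 3 Xist reads and 4479 Y reads. Rasgef1a female replicate 39 went against its label in Xist alone, with 2 Xist reads and 0 Y reads. Slc17a7 and Camk2a, which mark cortical excitatory neurons, averaged 1420 and 5090 CPM (counts scaled to library size). In tissue RNA, fewer cells of a type and less RNA per cell cannot be told apart, which holds for every value below.

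Per length of transcript, Grm2, Grm3 and Grm5 were the most abundant of the 6 genes and Grm8 the least. Levels were compared between genes in the authors' RefSeq FPKM, fragments scaled to gene length and library depth. The group I gene Grm5, whose receptor is held in the postsynaptic scaffold by Homer proteins, lay between 19.2 and 29.3 FPKM with a median of 24 and averaged 24.1 ± 1.49 FPKM (SD over all libraries). It lies on chromosome 7 from 87584168 to 88134907 on the plus strand (GRCm38, GENCODE vM21, as all gene positions here) and is annotated with 7 transcripts. Its level was thus close to that of the group II genes, and it made up 23.2% of the FPKM summed over the 6 genes.

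Both group II genes were at a similar level. Grm2, a presynaptic receptor gene on chromosome 9 from 106643095 to 106656082 on the minus strand, averaged 26.5 ± 3.09 FPKM (SD over all libraries) and ranged from 18.2 to 32.3. Grm3, whose receptor is found on neurons and on astrocytes and also answers to the peptide N-acetylaspartylglutamate, lies on chromosome 5 from 9485541 to 9725170 on the minus strand and averaged 24.4 ± 1.80 FPKM. Within a library, the FPKM of Grm2 was above that of Grm3 in 79 libraries, with a ratio of 1.09 ± 0.125, and Grm5 was above Grm3 in 44, with a ratio of 0.988 ± 0.0665. The order of these 3 genes rested on the gene models: with the authors' Ensembl FPKM, Grm3 averaged 24.1, Grm5 18.2 and Grm2 16.5.

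The group III genes followed in a fixed order. Grm7, a receptor of low glutamate affinity placed in the active zone of nerve endings, averaged 17.3 ± 1.06 FPKM (SD over all libraries), Grm4 averaged 7.83 ± 0.737 FPKM and Grm8 averaged 3.76 ± 0.514 FPKM. Grm7 was above Grm4 in every library, with a mean ratio of 2.24, and Grm4 was above Grm8 in every library, with a mean ratio of 2.12. The ratio of Grm7 to Grm2 stayed between 0.512 and 0.901. Grm7 on chromosome 6 (110645581 to 111567230, plus strand) and Grm8 on the same chromosome (27275119 to 28135178, minus strand) are the longest of the 6 genes at 921.6 and 860.1 kb, while Grm4 on chromosome 17 (27422387 to 27521403, minus strand) spans 99.02 kb and Grm2 12.99 kb. In Ensembl FPKM the 3 genes kept this order at 12 for Grm7, 5.85 for Grm4 and 1.28 for Grm8.

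**Figure D1:**
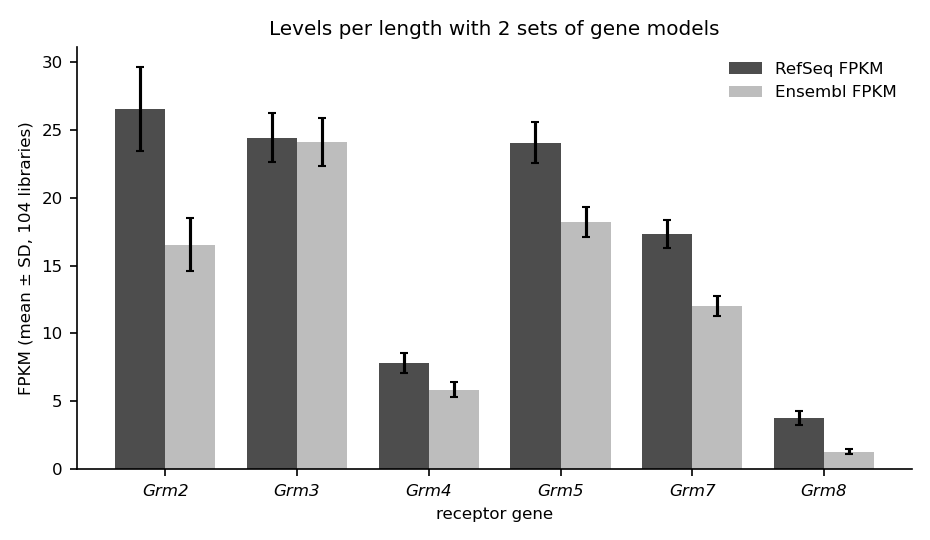
Mean FPKM of each receptor gene over all libraries (y axis, bars start at 0, error bars are SD) with RefSeq and with Ensembl gene models (dark and light bars). Grm2 stood at 26.5 with RefSeq and at 16.5 with Ensembl models, while Grm3 stood at 24.4 and 24.1.

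Promoter sequence was at hand for 4 of the 6 genes (Grm2, Grm3, Grm7 and Grm8, from RefSeq on GRCm38.p6) and not for Grm4 and Grm5. The windows of 250 bases before the most upstream annotated start of Grm7, which differed between the sexes, of Grm3, which came close to the threshold, and of Grm8, which did not come near it, are shown for comparison, 5′ to 3′ on the strand of the gene. Capitals mark the GC box GGGCGG, the only one of the motifs searched that all 3 windows hold. They are Grm7 at chr6:110645262-110645511 on the plus strand, Grm3 at chr5:9725353-9725602 and Grm8 at chr6:28135147-28135396, both on the minus strand.
Grm7: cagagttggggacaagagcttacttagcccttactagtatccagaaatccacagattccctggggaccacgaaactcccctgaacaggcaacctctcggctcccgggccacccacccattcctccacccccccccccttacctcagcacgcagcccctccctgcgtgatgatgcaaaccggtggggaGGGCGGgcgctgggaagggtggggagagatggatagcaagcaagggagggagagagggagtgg
Grm3: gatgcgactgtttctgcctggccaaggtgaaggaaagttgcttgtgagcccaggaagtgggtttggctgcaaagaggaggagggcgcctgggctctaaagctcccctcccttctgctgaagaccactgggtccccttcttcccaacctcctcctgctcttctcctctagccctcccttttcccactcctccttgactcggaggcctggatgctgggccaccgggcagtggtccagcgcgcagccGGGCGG
Grm8: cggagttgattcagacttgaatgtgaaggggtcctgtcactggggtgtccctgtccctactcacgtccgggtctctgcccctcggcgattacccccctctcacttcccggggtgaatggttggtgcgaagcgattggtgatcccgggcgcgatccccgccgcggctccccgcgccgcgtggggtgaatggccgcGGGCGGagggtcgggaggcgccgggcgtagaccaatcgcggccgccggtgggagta

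All 3 windows were rich in G and C, at 62% for Grm7, 62.4% for Grm3 and 68.4% for Grm8, and that of Grm2 was at 71.2%, beside a median of 52.4% over 32851 windows of the same length. The GC box, searched on both strands like the other motifs, was present once in each of the printed windows and 3 times in that of Grm2, and in 32.7% of all windows. The CCAAT box (CCAAT) was present 2 times in the Grm8 window and once in that of Grm2, and in 33.8% of all windows. None of the most upstream windows of these 4 genes held the cyclic AMP response element TGACGTCA (in 1.55% of all windows), its core TGACG (17.8%) or the TATA box TATAAA (12.4%). Nor did they hold AGGTCA (14%), a part of nuclear receptor elements, or AGAACA (16.1%), a part of androgen and glucocorticoid receptor elements. Whole elements of these receptors were not searched for. TGACG is part of TGACGTCA. Grm7 and Grm8 also have windows before annotated starts further downstream, which are not printed. For Grm8, the window at chr6:28134422-28134671 held TGACG and a CCAAT box, and that at chr6:28126427-28126676 held AGAACA. Neither held a GC box. These are matches of letters in a window and not binding sites, and the absence of letters here says nothing of a factor elsewhere.

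Between the sexes, 2 of the 6 receptor genes differed, the group III genes Grm4 and Grm7, and both were higher in females. Genes higher in females made up 4.07% of all genes tested, and genes that differed in either direction 8.57%. Grm4 encodes a presynaptic receptor that the group III agonist L-AP4 activates. In females it ran from 26.5 to 43.3 CPM with a median of 35.5, and in males from 27.9 to 39.2 with a median of 33. The ranges overlapped over most of their length, yet 42 of 52 females lay above the male median. Grm4 averaged 35.6 ± 3.33 CPM in females and 33 ± 2.83 CPM in males (SD, n = 52 each), a log2 difference of 0.11 ± 0.024 (SE) or 7.91%. By edgeR's quasi-likelihood test with line as a term and Benjamini-Hochberg adjustment over all genes, its adjusted p was 0.000989.

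Grm7 ran from 65.8 to 86.3 CPM with a median of 73.8 in females and from 59.8 to 79.5 with a median of 70.9 in males, and 40 of 52 females lay above the male median. It averaged 74.2 ± 4.37 CPM in females and 70.8 ± 3.64 CPM in males (SD, n = 52 each), which is 4.63% higher in females. Its log2 difference of 0.065 ± 0.015 (SE) had an adjusted p of 0.00204 in the same edgeR test. Both differences were small in absolute terms but above the middle of all genes, whose median absolute log2 difference was 0.027, and Grm7 was close to that of the called genes at 0.069. By p, Grm4 stood at place 233 and Grm7 at place 306 of 15723 genes.

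The remaining group III gene did not follow them. Grm8, a presynaptic receptor gene of high glutamate affinity, ran from 8.88 to 16.5 CPM with a median of 14.2 in females and from 9.53 to 18 with a median of 13.8 in males. Its means were 13.8 ± 1.71 CPM in females and 13.8 ± 2.11 CPM in males (SD, n = 52 each), and the 95% interval of the log2 difference ran from -0.079 to 0.077 (adjusted p = 0.992, edgeR's quasi-likelihood test). That interval includes a difference of the size seen in Grm7. Whether the sex difference of 1 receptor gene differed from that of another was not tested.

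Neither group II gene passed the threshold. Grm3 averaged 88.0 ± 5.62 CPM in females and 84.7 ± 6.60 CPM in males (SD, n = 52 each), with 35 of 52 females above the male median. The log2 difference of 0.055 ± 0.019 (SE) had an adjusted p of 0.0557 by edgeR's quasi-likelihood test, and the female mean was above the male mean in 12 of 13 lines. This p lay on either side of 0.05 by setting, at 0.0165 without the line Rgs9, where the log2 difference was 0.067, and at 0.325 with marker scores as covariates, where it was 0.035. Grm2 averaged 89.1 ± 10.5 CPM in females and 87.3 ± 9.61 CPM in males, with an interval of the log2 difference from -0.032 to 0.090 and an adjusted p of 0.631 in the edgeR test. The group I gene Grm5 averaged 207 ± 12.2 CPM in females and 204 ± 12.9 CPM in males, with an interval from -0.013 to 0.053 and an adjusted p of 0.519. The median log2 difference of the 6 genes was 0.042, that of all genes 0.00016.

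**Figure D2:**
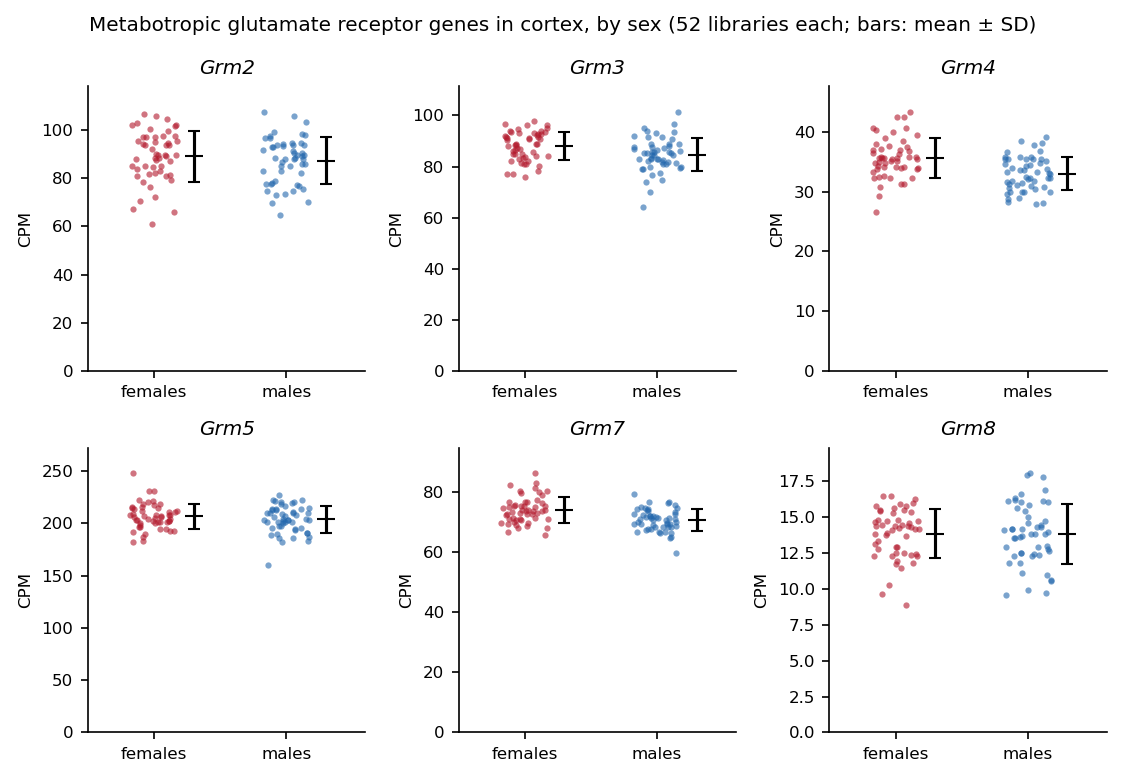
CPM of each receptor gene (y axis from 0) in 52 females (left) and 52 males (right), one point per library, with mean and SD beside the points. Grm4 averaged 35.6 in females and 33 in males, and Grm7 74.2 in females and 70.8 in males, with points that overlap in every panel.

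Line by line, the direction of Grm4 and Grm7 was shared by most lines. The female mean of Grm4 was above the male mean in 12 of 13 lines, with the widest gap in Dach1 at 37.1 CPM in females and 31.3 CPM in males (SD 3.73 and 3.15, n = 4 each). Tbc1d8 was the exception at 32.8 CPM in females and 33.5 CPM in males.

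For Grm7 the female mean was above the male mean in 11 of 13 lines. The widest gap was in Gsg1l, at 74.9 ± 3.64 CPM in females and 67.3 ± 5.48 CPM in males (SD, n = 4 each). Gsg1l male replicate 13 was at 59.83 CPM. In Dach1 Grm7 averaged 76.1 ± 3.51 CPM in females and 68.7 ± 3.21 CPM in males. The direction was opposite in Morf4l1 (69.4 CPM in females and 70.8 CPM in males) and in Rasgef1a (69.9 CPM in females and 73.2 CPM in males). Rasgef1a holds 2 of the libraries that go against their sex label. The edgeR interaction test of sex and line called 0 of the 6 genes (adjusted p = 1 for each, F from 0.516 to 1.53). Among all genes 0.0382% were called, so 0 of 6 is near the background and is no result about the receptor genes. At an unadjusted p under 0.05 the count was 0 of 6 receptor genes and 597 of 15723 genes.

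**Figure D3:**
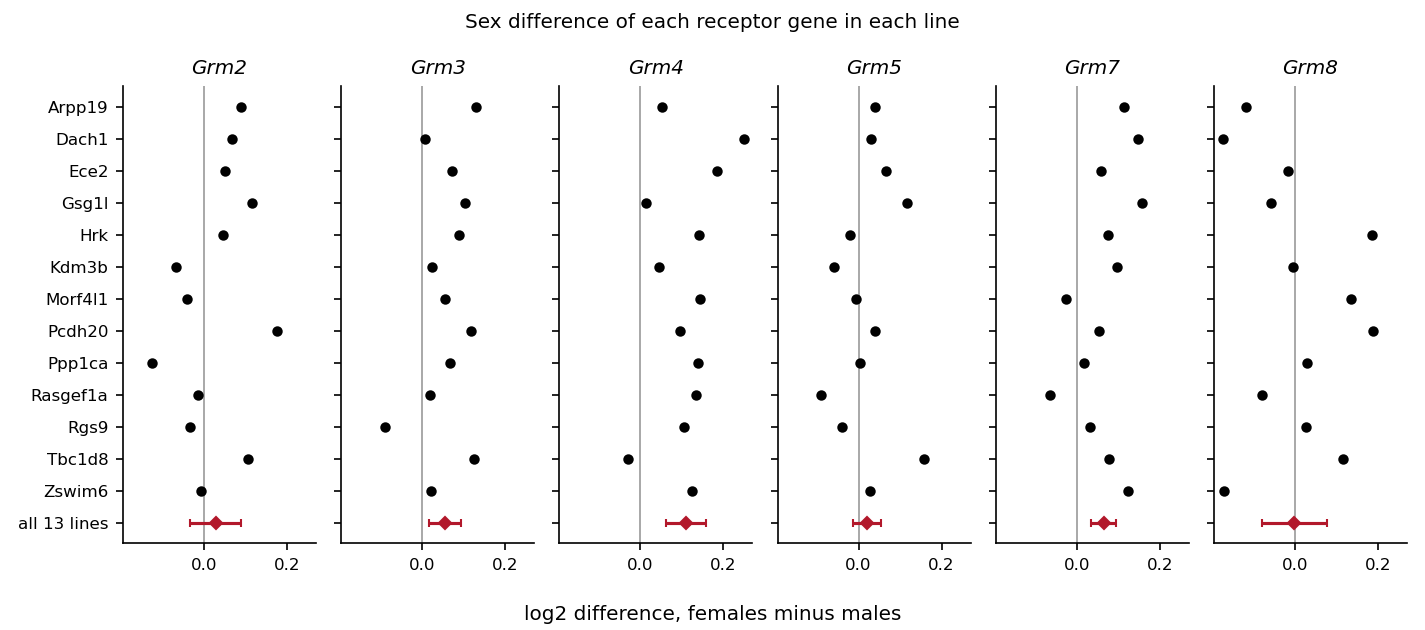
Log2 difference between females and males (x axis, positive is higher in females) of each receptor gene in each line (black points, 4 females and 4 males each) and over all 13 lines (red diamond with its 95% interval). For Grm4 12 of 13 points and for Grm7 11 of 13 points lie right of 0. The interval over all lines, not adjusted for the number of genes, excludes 0 for Grm3, Grm4 and Grm7. Grm3 was not called (adjusted p = 0.0557, edgeR).

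Both calls held in 26 of 26 other settings. Without the 3 libraries against their sex labels and the shallow library, the log2 difference was 0.11 for Grm4 (adjusted p = 0.00104, edgeR) and 0.071 for Grm7 (adjusted p = 0.000682). Markers of oligodendrocytes and of their precursors moved with sex: 2 of 7 oligodendrocyte markers (Mog and Cldn11) and 2 of 6 precursor markers (Gpr17 and Neu4) were higher in females, and 0 were lower. The summed oligodendrocyte level ran from 1438 to 2628 CPM in females and from 1713 to 2562 CPM in males, and the summed precursor level from 181.9 to 229.4 CPM in females and from 164.9 to 222.7 CPM in males. Of 9 astrocyte markers 1 was higher (S100b), of 9 excitatory neuron markers 1 was lower (Slc17a7), and of 9 interneuron and 7 microglia markers 0 were called. Of the other lists, 1 of 6 endothelial markers (Abcb1a) and 1 of 7 hippocampal markers (C1ql2) were higher in females. Lower in females were 1 of 8 striatal markers (Ppp1r1b), 1 of 7 thalamic markers (Calb2) and 1 of 4 choroid plexus markers (Ttr, log2 difference -1.97), and 0 of 4 cerebellar and olfactory bulb markers were called. With scores of the striatal, oligodendrocyte, hippocampal, choroid plexus and astrocyte lists as covariates, both differences were as large as without them. In that edgeR fit Grm4 was 0.11 higher (adjusted p = 0.00121) and Grm7 0.066 higher in females (adjusted p = 0.00128). The other marker lists, that of the precursors included, were not in this fit.

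Across the 13 lines 0 of the 6 receptor genes were called, beside 9.61% of all genes. For 6 genes that is near the background and is no result about the receptor genes. The F-test of edgeR over lines, with sex as a term, gave adjusted p-values from 0.252 for Grm2 to 0.692 for Grm8. An unadjusted p under 0.05 was met by 0 of 6 receptor genes and by 3702 of 15723 genes. In simulated counts this F-test found 22% of genes changed 1.1-fold in 1 line. Down the order of lines, each of the 12 gaps between neighbours was smaller than the SD of either neighbour, for each gene, so no neighbours in the orders below differed beyond their spread.

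Grm5 averaged 213 CPM in Kdm3b, 212 in Arpp19, 209.8 in Ppp1ca, 209 in Zswim6, 207 in Hrk and in Tbc1d8, 206 in Rgs9, 204 in Morf4l1 and in Pcdh20, 201 in Ece2, 199.8 in Rasgef1a, 198 in Dach1 and 197 in Gsg1l, with SDs from 5.5 (Morf4l1) to 19.8 (Gsg1l, n = 8 each). The highest line was 1.081 times the lowest. Grm2 averaged 96.9 CPM in Morf4l1, 94.1 in Kdm3b, 93.0 in Zswim6, 91.0 in Gsg1l, 88.8 in Ppp1ca, 88.6 in Arpp19, 88.4 in Pcdh20, 86.4 in Ece2, 86.0 in Hrk, 84.2 in Tbc1d8, 84.0 in Rgs9, 83.7 in Dach1 and 81.2 in Rasgef1a, with SDs from 4.64 (Ece2) to 15.7 (Rasgef1a). Its ratio of highest to lowest line, 1.19, was the largest of the 6 genes, and so was its F of 1.76.

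Grm3 averaged 90.0 CPM in Kdm3b, 89.5 in Ppp1ca, 88.6 in Zswim6, 88.3 in Hrk, 88.1 in Arpp19, 87.8 in Ece2, 86.6 in Pcdh20, 86.1 in Rgs9, 85.0 in Morf4l1, 84.3 in Tbc1d8, 84.2 in Dach1, 83.8 in Rasgef1a and 80.7 in Gsg1l, with SDs from 3.43 (Kdm3b) to 8.31 (Rasgef1a, n = 8 each). The step of 3.18 CPM down to Gsg1l was the widest in its order.

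Of the group III genes, Grm4 averaged 37.6 CPM in Morf4l1, 35.8 in Ece2, 35.2 in Rasgef1a, 34.9 in Ppp1ca, 34.6 in Hrk, 34.2 in Dach1, 34.1 in Arpp19, 33.8 in Rgs9, 33.7 in Pcdh20, 33.2 in Tbc1d8, 33 in Kdm3b, 32.9 in Gsg1l and 32.8 in Zswim6, with SDs from 1.61 (Tbc1d8) to 4.48 (Dach1, n = 8 each). Grm7 averaged 75.3 CPM in Zswim6, 74.6 in Kdm3b, 74.1 in Arpp19, 73.8 in Hrk, 73.5 in Rgs9, 72.4 in Dach1, 72.2 in Ppp1ca, 71.5 in Rasgef1a and in Ece2, 71.3 in Pcdh20, 71.1 in Gsg1l, 70.6 in Tbc1d8 and 70.1 in Morf4l1. Morf4l1 thus stood at the top of the Grm4 order and at the foot of the Grm7 order, and Zswim6 the other way round. Grm8 averaged 15 CPM in Kdm3b, 14.6 in Ppp1ca and in Dach1, 14.2 in Zswim6, 14 in Pcdh20, 13.9 in Ece2, 13.8 in Rgs9 and in Rasgef1a, 13.6 in Arpp19, 13.1 in Morf4l1, in Hrk and in Tbc1d8, and 12.7 in Gsg1l. Kdm3b, which holds the shallow library, headed the orders of Grm3, Grm5 and Grm8, and Gsg1l ended them.

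**Figure D4:**
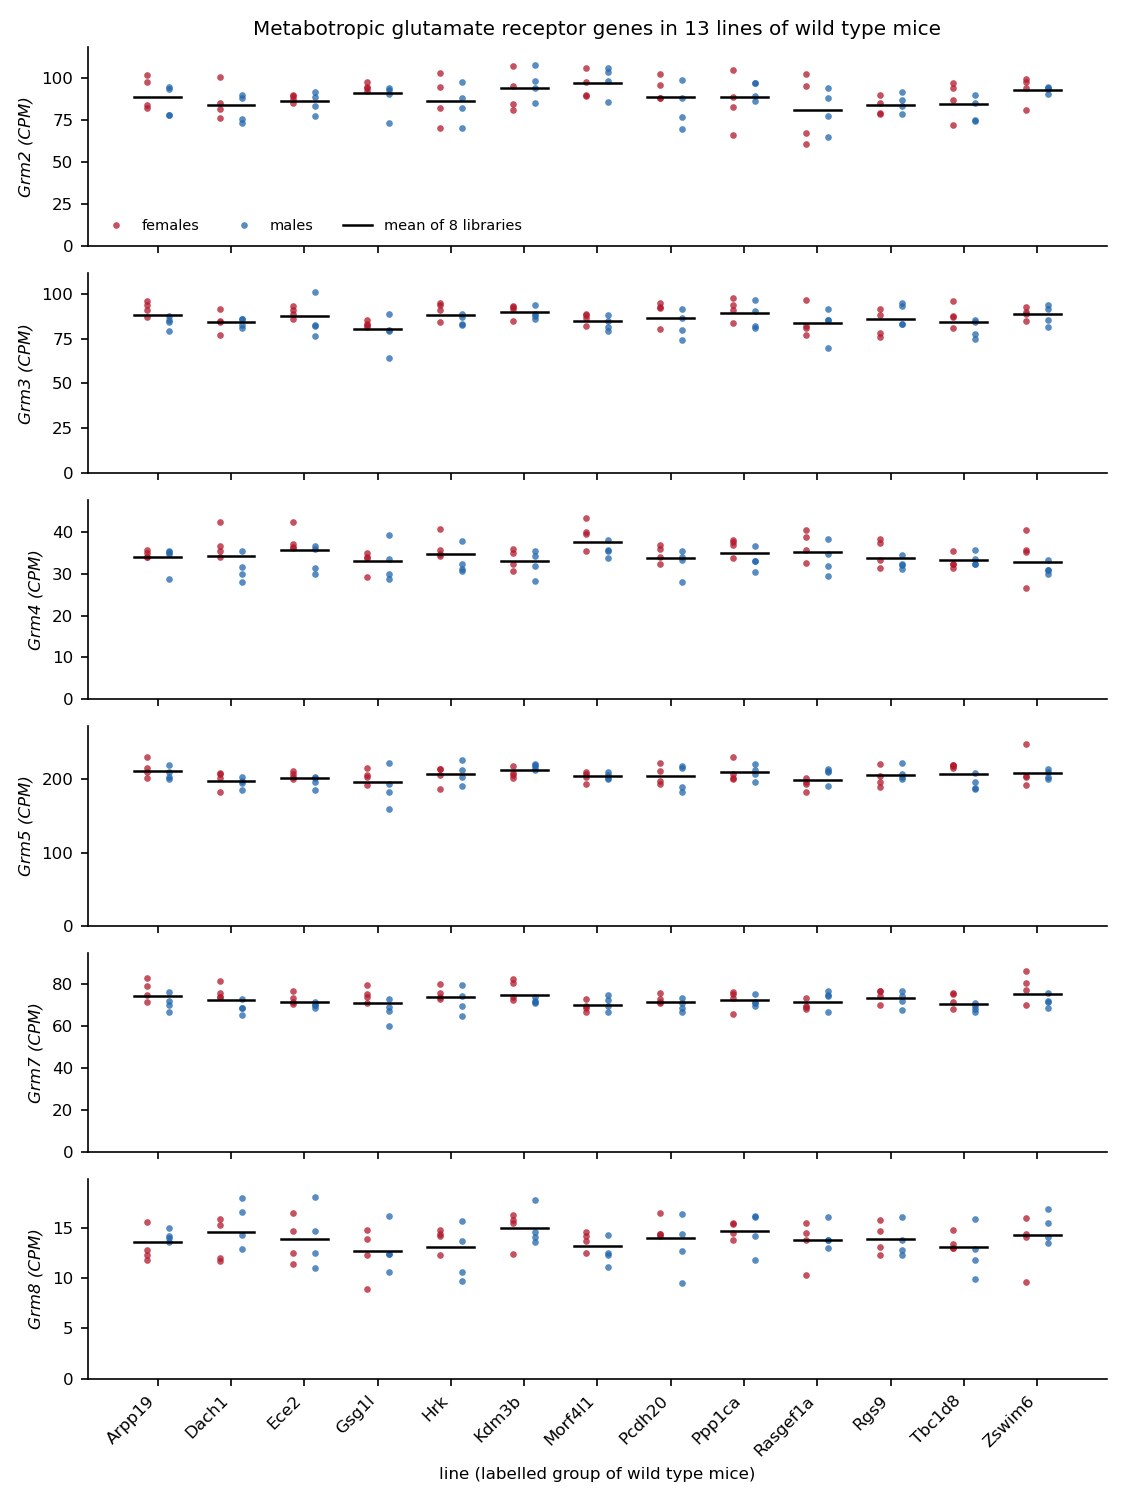
CPM of each receptor gene (y axis from 0) by line (x axis), with 4 females (red, left) and 4 males (blue, right) per line and the mean of the 8 libraries as a bar. The means differ by 1.07 times (Grm7) to 1.19 times (Grm2) between the highest and the lowest line.

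Set against the mean of the other 12 lines, 1 of the 78 pairs of a gene and a line was called, Grm3 in Gsg1l. A share of 1.79% of all genes over the 13 such contrasts was called, so 1 of 78 is near the background and is no result about the receptor genes. Among all genes 5.58% were lower in Gsg1l. The 8 libraries of Gsg1l held 82.8, 81.4, 85.7 and 83.3 CPM of Grm3 in females and 64.2, 79.4, 88.6 and 79.8 CPM in males, a mean of 80.7, against 86.9 CPM in the other lines. Of the 8, 7 lay below the median of the other lines and 1 male stood well below the rest. The log2 difference of -0.11 ± 0.037 (SE) had an adjusted p of 0.0452 by edgeR's quasi-likelihood test, and without Gsg1l male replicate 13 it was -0.067 with an adjusted p of 0.297. The call also ended without any 1 of 5 other Gsg1l libraries, namely female replicates 13 (adjusted p = 0.0758, edgeR), 14 (0.058) and 16 (0.0561) and male replicates 14 (0.0504) and 16 (0.0573). The call was made in 7 of 19 other settings, with adjusted p-values from 0.0174 to 0.344.

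Gsg1l also stood lowest for Grm5 (197 CPM in Gsg1l, 206 CPM in the other lines, log2 difference -0.063, adjusted p = 0.198 by edgeR) and Grm8 (12.7 CPM in Gsg1l, 13.9 CPM in the other lines, -0.13, adjusted p = 0.267), neither past the threshold. Without Gsg1l male replicate 13 the Grm5 difference was -0.025 (adjusted p = 0.715, edgeR), and with marker scores as covariates it was -0.11 and passed (adjusted p = 0.0045). The Grm8 difference was -0.075 without Gsg1l female replicate 13 (adjusted p = 0.647, edgeR) and -0.043 with the covariates (adjusted p = 0.698). The median log2 difference of the 6 genes in Gsg1l was -0.062, beside 0.0057 over all genes. Without Gsg1l and Tbc1d8, 19 genes were called between lines, against 1511 with them. Nnt, a mitochondrial transhydrogenase gene disrupted in the C57BL/6J substrain, was at 31.2 CPM in Gsg1l and 33 CPM in Tbc1d8 against 21.8 CPM in the other 11 lines. Gabra2, a GABA receptor subunit gene, was at 50 CPM in Gsg1l and 55.0 CPM in Tbc1d8 against 32.3 CPM in the other 11 lines. Its ranges overlapped, at 26 to 58.3 CPM in Gsg1l, 48.5 to 60.7 CPM in Tbc1d8 and 25.4 to 54.7 CPM in the other 11 lines. Gsg1l female replicate 14 lay with the other 11 lines for both (23.4 CPM of Nnt and 26 CPM of Gabra2). The part of this difference in the Grm3 level was not tested. In Gsg1l the summed excitatory neuron markers ran from 8499 to 9564 CPM, against 8211 to 9719 CPM in the other lines, with 2 of 9 higher (Slc17a7 and Camk2a), and the oligodendrocyte sum from 1739 to 2458 CPM, against 1438 to 2628 CPM, with 0 of 7 called. The microglia sum ran from 304 to 343.3 CPM in Gsg1l, against 265.1 to 356.8 CPM, with 1 of 7 higher (P2ry12), and the thalamic sum from 181.3 to 229.9 CPM, against 190.7 to 241.3 CPM, with 1 of 7 lower (Rora). The striatal sum ran from 240.7 to 280.2 CPM in Gsg1l, against 235.2 to 346.2 CPM, with 2 of 8 higher (Gpr6 and Ppp1r1b) and 2 lower (Penk and Pde10a). Of 9 interneuron markers 1 was lower (Slc32a1), of 4 cerebellar and olfactory bulb markers 1 was higher (Cdhr1), and of the astrocyte, precursor, endothelial, hippocampal and choroid plexus markers 0 were called. With marker scores as covariates the Grm3 difference in Gsg1l was -0.11 (adjusted p = 0.036, edgeR).

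Other lines at the ends of an order were not called. Grm4 averaged 37.6 CPM in Morf4l1 and 34 CPM in the other lines (log2 difference 0.15, adjusted p = 0.183, edgeR), with 7 of 8 libraries above the median of the others. Grm2 averaged 96.9 CPM in Morf4l1 and 87.5 CPM in the other lines (0.15, adjusted p = 0.326 by the same edgeR test). Between the 8 libraries of plate 2 and the 96 of plate 1, 0 of 6 genes were called, with line and sex as terms. Adjusted p-values by edgeR ran from 0.452 for Grm8 to 0.981 for Grm3. Grm8 averaged 12.5 CPM on plate 2 and 13.9 CPM on plate 1, and Grm3 84.4 and 86.5 CPM. Among all genes 0.242% were called, so 0 of 6 is near the background and is no result about the receptor genes.

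The 6 genes varied unequally between animals once line and sex were taken out. The residual SD on the log2 CPM scale was 0.087 for Grm5, 0.16 for Grm2, 0.10 for Grm3, 0.13 for Grm4, 0.078 for Grm7 and 0.21 for Grm8. Grm8 is also the gene with the fewest reads, a median of 403 per library against 957 for Grm4 and 5939.5 for Grm5, so its counting error is the widest. Yet of 2113 genes of like mean level, only 5.73% had a wider residual SD than Grm8. For Grm2 this share was 5.13% of 1912 genes, and for the rest it ran from 15.3% (Grm4) to 41.4% (Grm7). The part of counting error in these spreads was not tested. Grm2, with a median of 2538.5 reads, close to the 2493 of Grm3, was the more variable of both group II genes.

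The residuals of the receptor genes moved together in some pairs and oppositely in others. Over all libraries, r stands for Pearson's correlation and rho for Spearman's, on log2 CPM with line and sex taken out, with adjusted p-values from 2-sided permutation tests (100000 draws) over 87 relations among the 6 genes and the 12 marker lists. All points share the library and its scaling. Grm5 and Grm7 had the closest relation (r = 0.60, rho = 0.56), followed by Grm4 against Grm5 with opposite sign (r = -0.48, rho = -0.45) and Grm3 with Grm5 (r = 0.46, rho = 0.43). The permutation p was 1e-05 for r and for rho in each of these 3, the smallest these draws can give, and 9.67e-05 and 0.000109 after adjustment. Without the 2 libraries farthest from the median of the x measure, these r were 0.52, -0.44 and 0.40, so the relations did not rest on them. Of the group II pair, Grm2 and Grm3 had r = 0.37 and rho = 0.37 (adjusted permutation p = 0.000497 and 0.000725).

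Within group III the relations were weaker. Grm4 and Grm7, the genes that were higher in females, had r = -0.25 (adjusted permutation p = 0.0237) and rho = -0.18 (0.141) between animals of 1 line and sex, and r = -0.18 without the 2 farthest libraries. Grm7 and Grm8 had r = -0.28 (adjusted permutation p = 0.013) and rho = -0.24 (0.0384), and Grm4 and Grm8 r = 0.20 (0.0793). The genes that share a group were thus not those that varied together most, with the group I gene Grm5 closest to the group III gene Grm7.

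Several of the 6 genes also varied with cell type and region markers. Grm8 had the widest set: its r was 0.57 with the oligodendrocyte score, -0.57 with the astrocyte score, -0.46 with microglia, -0.45 with thalamic neurons, 0.40 with excitatory neurons and -0.36 with endothelium, and each kept its sign in rho and without the 2 farthest libraries. Grm5 had r = -0.55 with the oligodendrocyte score (rho = -0.58), and Grm7 r = -0.405 (rho = -0.395). Grm4 had the opposite sign to Grm5, with r = 0.41 for excitatory neurons (-0.37 for Grm5) and 0.30 for oligodendrocytes. Grm3 had r = -0.45 with interneurons and 0.38 with microglia, and Grm7 r = 0.40 with hippocampal neurons. Each of these r had an adjusted permutation p of at most 0.00548. Of all 87 relations 32 passed for both r and rho. For Grm2 the widest was r = -0.25 with astrocytes (adjusted permutation p = 0.0237), and its r with oligodendrocytes was -0.063. The part of tissue make-up in the receptor levels was not tested beyond the covariate fits given with each comparison.

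**Figure D5:**
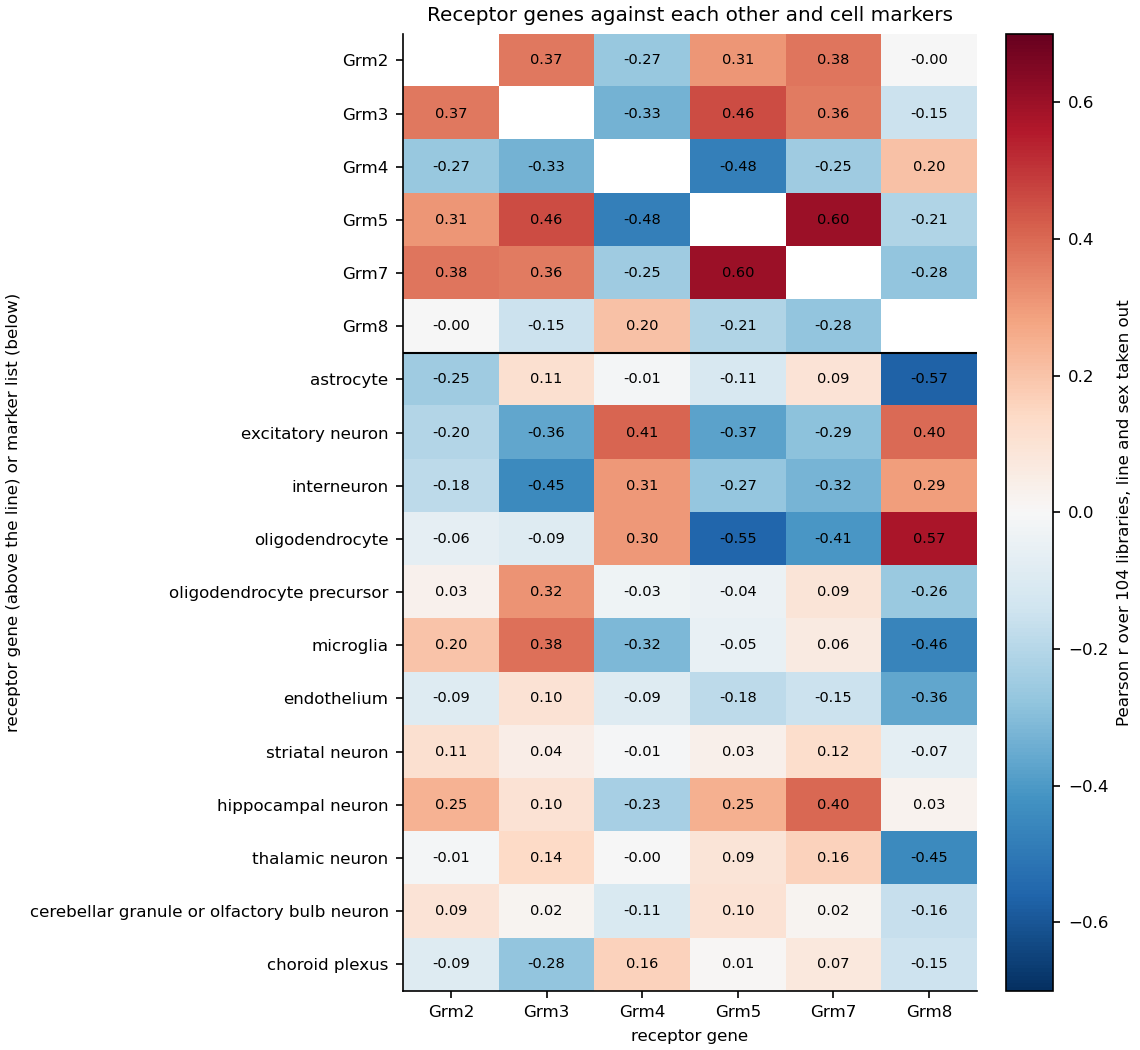
Pearson r over all libraries, with line and sex taken out, between the receptor genes (columns) and each other (above the line) or 12 cell type and region marker scores (below it), in blue where negative and red where positive. Grm5 and Grm7 stand at 0.60, and Grm8 at 0.57 with oligodendrocyte and -0.57 with astrocyte markers.

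The genes whose levels followed each receptor gene most closely over all libraries were found by r of log2 CPM among 12825 genes of sufficient level, and the 3 highest are given. For Grm5 they were Lphn3 (r = 0.81), an adhesion G protein-coupled receptor gene, Chl1 (0.79), an L1-family adhesion molecule gene, and Astn1 (0.78), an astrotactin gene. For Grm2 they were Rassf3 (0.83), Oscp1 (0.82) and Cep83os (0.80), a transcript from the strand opposite Cep83. For Grm3 they were Vldlr (0.69), a reelin receptor gene, Clasp2 (0.68), a microtubule-binding protein gene, and Nrcam (0.66), a neuronal adhesion molecule gene.

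For Grm4 the 3 were Hr (0.68), the hairless corepressor gene, Coro2b (0.65), a coronin gene, and Sema7a (0.65), a membrane-anchored semaphorin gene. Those of Grm7 were Tenm2 (0.62), a teneurin gene, Med12l (0.62) and Vldlr (0.62), which is thus near both Grm3 and Grm7. For Grm8 they were Galnt14 (0.77), a glycosyltransferase gene, Tmem74 (0.74) and Sema3e (0.72), a secreted semaphorin gene. With line and sex taken out, these r ran from 0.572 (Coro2b with Grm4) to 0.832 (Rassf3 with Grm2). Of these genes, Vldlr (log2 difference 0.049, adjusted p = 0.0467), Clasp2 (0.043, 0.00623) and Nrcam (0.042, 0.00862) were themselves higher in females by edgeR's quasi-likelihood test. The rest, the companions of Grm4 included, were not called. Among all genes 4.07% were higher in females. Sex was left in when the companions were picked, which favours genes that share a sex difference.

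Genes that work with the receptors were followed in 5 lists, 94 genes in all. Between the sexes 8 of them were higher and 13 lower in females, and 21 differed between lines, beside 8.57% of all genes between the sexes and 9.61% between lines. The lists were made with earlier results of these data known.

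Of 24 genes of group I coupling and scaffolds, 2 were higher and 4 lower in females, with a median log2 difference of 0.0035. Plcb4, a phospholipase C gene, averaged 96.7 ± 6.42 CPM in females and 92.3 ± 7.46 CPM in males (SD, n = 52 each, log2 difference 0.068, adjusted p = 0.00309 by edgeR). Cyth2, an Arf exchange factor gene, averaged 72.3 ± 2.58 CPM in females and 75.9 ± 3.12 CPM in males and was lower in females in all 13 lines (-0.071, adjusted p = 1.47e-07, edgeR). Gna11, a Gq-family alpha subunit gene, was lower by less (-0.044, adjusted p = 0.00112), as was Ncdn (-0.051, adjusted p = 0.006), the gene of neurochondrin, a protein that binds Grm5's receptor. Homer1, Shank1 and Gnaq were not called, with log2 differences of 0.039, -0.0077 and 0.0053. Between lines 7 of the 24 differed, led by the phospholipase C genes Plcb1 (F = 6.63, adjusted p = 1.79e-06) and Plcb4 (F = 6.50, adjusted p = 2.5e-06, both edgeR).

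Of 24 genes of Gi and Go coupling and their effectors, through which group II and III receptors act, 2 were higher and 3 lower in females. Adcy1, a calmodulin-stimulated adenylyl cyclase gene, averaged 1668 ± 77.1 CPM in females and 1748 ± 93.4 CPM in males and was lower in females in all 13 lines (-0.067, adjusted p = 0.000223, edgeR). Adcy9 was lower as well (-0.048, adjusted p = 0.0292), and the protein kinase A subunit genes Prkaca (0.027, 0.0397) and Prkar2b (0.038, 0.0451) were higher, by the same edgeR test. The alpha subunit gene Gnao1 was not called (0.0033, adjusted p = 0.891). Between lines 6 of the 24 differed, led by Adcy2 (F = 7.10, adjusted p = 5.79e-07, edgeR) and Prkar1b (F = 6.16, adjusted p = 5.79e-06).

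Of 13 presynaptic and trans-synaptic partners of group III receptors, 0 were higher and 1 was lower in females. That gene, Ppp1cc, a protein phosphatase 1 subunit gene, averaged 12.9 CPM in females and 13.6 CPM in males (-0.080, adjusted p = 0.00383, edgeR). Pick1, whose protein binds the tail of the Grm7 receptor, was at 46.6 ± 2.28 CPM in females and 46.4 ± 1.85 CPM in males (0.0047, adjusted p = 0.875, edgeR). Elfn1, which binds Grm7's receptor across the synapse, was at 32.9 ± 2.50 CPM in females and 32.5 ± 2.19 CPM in males (0.018, adjusted p = 0.587, edgeR) and was the only one of the 13 called between lines (F = 3.46, adjusted p = 0.00642). Neither of these Grm7 partners was called between the sexes.

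Of 15 genes of desensitisation and RGS proteins, 3 were higher and 3 lower in females. Adrbk2, a receptor kinase gene, averaged 152 ± 8.66 CPM in females and 161 ± 9.09 CPM in males (-0.085, adjusted p = 1.75e-06, edgeR), while the kinase gene Grk5 averaged 12.9 ± 1.1 CPM in females and 12.2 ± 0.728 CPM in males, higher in females in all 13 lines (0.074, adjusted p = 0.00487, edgeR). The kinase gene Grk6 was lower (-0.044, adjusted p = 0.00964) and so was Rgs12 (-0.094, adjusted p = 0.0168, edgeR). Between lines 3 of the 15 differed, with Arrb1, the gene of beta-arrestin 1, at the largest F of all 5 lists (F = 8.89, adjusted p = 7.39e-09, edgeR). Arrb1 was at 464.5 CPM in Gsg1l and 468 CPM in Tbc1d8, against 506.2 CPM in the other 11 lines. Plcb1, Plcb4 and Prkar1b were likewise lower in both lines. Elfn1 was at 34.17 CPM in Gsg1l and 36.45 CPM in Tbc1d8, against 32.2 CPM in the other 11 lines. Set against the mean of the other 12 lines, Elfn1 was called in Tbc1d8 (adjusted p = 5.52e-05, edgeR) and not in Gsg1l (0.158). Adcy2 was at 209.3 CPM in Gsg1l and 211.2 CPM in Tbc1d8, against 208.8 CPM in the other 11 lines.

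Of 18 genes of glutamate and N-acetylaspartylglutamate supply and clearance, 1 was higher and 2 lower in females. Slc17a6, a vesicular glutamate transporter gene mostly of subcortical neurons, averaged 41.9 ± 2.90 CPM in females and 38.5 ± 3.94 CPM in males, and was higher in females in all 13 lines (0.13, adjusted p = 3.17e-06, edgeR). The cortical vesicular transporter gene Slc17a7 was lower (-0.054, adjusted p = 0.000433), as was Slc1a6, a glutamate uptake transporter gene (-0.12, adjusted p = 0.000363, edgeR). Between lines 4 of the 18 differed, led by Slc38a1, a glutamine transporter gene (F = 5.64, adjusted p = 2.31e-05, edgeR). Slc38a1 was at 242.5 CPM in Gsg1l and 245 CPM in Tbc1d8, against 271.1 CPM in the other 11 lines. Grm4 at 0.11 was thus among the wider sex differences here, close to Slc1a6 and Slc17a6 in size, and the difference in effect between these genes was not tested.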

How the data were processed

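RNA of dissected cortex was made into stranded TruSeq libraries, per the labels' protocols. The authors deposited whole-number read counts per gene, with no normalization, for RefSeq genes and for Ensembl genes. They also deposited FPKM values, scaled by gene length and library depth, for both sets. The submitters' processing notes name STAR 2.7.3a and HTSeq 0.10.0 and the build GRCm38; the strand setting and filters of the counting are not given in the sources used here, so antisense reads cannot be told apart.

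RefSeq counts were tested by the quasi-likelihood method of edgeR 4.0.16, scaled by TMM, in R 4.3.3. The filter filterByExpr by line and sex (minimum count 10) kept 15723 of 24060 genes. The fit held line and sex. From it came the difference of the sexes, an F-test over lines and 13 contrasts of a line with the other 12; further fits added their interaction or the plate. A gene was called at an adjusted p under 0.05 (Benjamini-Hochberg, over all genes tested). CPM are TMM-scaled, and log2 CPM have a prior count of 2. Levels of different genes were compared in FPKM only. Residuals were taken from a linear fit on line and sex. Columns were matched to libraries by the names in the labels.

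The 6 genes, the 5 partner lists and the 12 marker lists were chosen with earlier results of these data known. Named besides the 6 genes were the 3 genes with the highest r per receptor (mean log2 CPM of at least 1), up to 4 called genes per partner list and test by smallest p, Nnt and Gabra2. A gene the rule takes is not reported here, though counts include it. Homer1, Shank1, Gnaq, Gnao1 and Pick1 were added for their roles after their values were seen. Alternatives were other scaling (RLE), no or a stricter filter, limma 3.58.1 on log2(FPKM + 0.1) and log2(FPKM + 1), DESeq2 1.42.0, Ensembl counts, plate 1 only, marker scores as covariates, a replicate block, and libraries or lines left out. Marker covariates were always the scores of the striatal, oligodendrocyte, hippocampal, choroid plexus and astrocyte lists. The Ensembl count table ended inside a line as given, so 19563 genes were used from it.

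In counts simulated from these libraries (15723 genes), the comparison of the sexes found 50% and 94% of the genes that were changed by 1.05 and 1.1 times. The test of lines found 22% of genes changed 1.1-fold in 1 line and 88% of those changed 1.25-fold. That of Gsg1l against the other lines found 52% and 98%. The changed genes, 50 per size of change, were taken from genes with more reads, and no other gene differed between sexes or lines. The shares found in the real counts can therefore differ from these. Same-numbered females and males of a line did not deviate together (52 pairs, r from -0.362 to 0.131), so the numbers were not used as pairs.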

Additional observations from a re-analysis of the deposited data

Results flagged for a closer look

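In 5 of the 78 sets of 8 libraries (6 genes in 13 lines), 1 library stood far from the other 7 by Dixon's criterion, which chance meets in about 1 in 20 sets. Grm3 was at 64.24 CPM in Gsg1l male replicate 13, with the other Gsg1l libraries between 79.41 and 88.64 CPM. Without it the log2 difference of Grm3 between Gsg1l and the other lines was -0.067, and the call ended, as it did without any 1 of 5 other Gsg1l libraries. It had the lowest summed thalamic markers of all libraries (181.3 CPM). Grm2 was at 73.02 CPM in Gsg1l male replicate 14, with the others between 90.56 and 97.21 CPM. Grm4 was at 28.83 CPM in Arpp19 male replicate 3, with the others between 33.88 and 35.69 CPM.

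Zswim6 female replicate 50 stood apart for 2 genes, with 247.8 CPM of Grm5 (others between 192.9 and 213.6 CPM) and 9.607 CPM of Grm8 (others between 13.52 and 16.9 CPM). Of all libraries it had the lowest summed oligodendrocyte markers (1438 CPM) and the highest summed hippocampal markers (146.2 CPM). Its summed cerebellar granule and olfactory bulb markers were the highest too (30.79 CPM). Without it the log2 sex difference was 0.12 for Grm4 and 0.061 for Grm7, and edgeR called both. The part of tissue make-up in its receptor levels was not tested.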

How the results depend on the processing

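The sex calls of Grm4 (log2 difference 0.0956 to 0.1215, adjusted p = 0.000228 to 0.00482) and Grm7 (0.0577 to 0.0765, adjusted p = 0.000343 to 0.00976) held in each of the 26 other settings tried, DESeq2, limma and the replicate block included. Grm3 passed in 4 of them: the stricter filter (adjusted p = 0.0461), DESeq2 (0.0482) and without the line Rasgef1a (0.0421) or Rgs9 (0.0165). The sign of Grm8's log2 sex difference of -0.0014 turned: it was 0.004148 and 0.002641 with limma on log2(FPKM + 0.1) and log2(FPKM + 1), 5.386e-06 with DESeq2, 0.000815 with the replicate block, and -0.01625 to 0.01301 with 1 line or library left out. No receptor gene was called between lines or for the interaction in any setting. The count of 1 gene and line pair called, Grm3 in Gsg1l, became 0 without a filter, with limma at either pseudocount, on plate 1 alone and in females or males alone, and 0 to 1 with 1 Gsg1l library left out. It became 4 with marker scores as covariates, adding Grm5 in Gsg1l (-0.11, adjusted p = 0.0045), Grm4 in Morf4l1 (0.16, 0.0274) and Grm7 in Tbc1d8 (-0.076, 0.0472). The cause was not tested. Over all genes, calls between lines were 1511, but 1001 on plate 1, 999 with covariates, 901 without Gsg1l, 400 without Tbc1d8 and 19 without both. Those of the interaction were 6, but 1 with limma or without the libraries against their labels and of lowest depth. The replicate block kept the count of receptor genes called between the sexes at 2. Precision is limited most for Grm8, with a median of 403 reads per library.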
